A study of Mus musculus with 8 samples.

Results

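The Notch receptors and their ligands were followed in mouse mammary tumors, together with Rbpj, the DNA-binding partner of the cleaved receptors. The set was defined by name as 10 genes (Notch1, Notch2, Notch3, Notch4, Jag1, Jag2, Dll1, Dll3, Dll4 and Rbpj), and a gene was measured where a row of the array table was annotated with that gene alone. By this rule 9 of the 10 genes were measured, out of 14860 genes with such a row. Notch4 has only a row that it shares with Btnl2 and Btnl6, and no value is given for it. Each of the 9 measured genes has exactly 1 row of its own, and for Jag2 a further row shared with Pgp was left aside.

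The RNA of each of 8 tumors was read on its own Affymetrix Mouse Exon 1.0 ST array. In 4 MMTV-Wnt1 tumors the Wnt1 transgene was driven in mammary epithelium by the mouse mammary tumor virus promoter, and the 4 MMTV-Wnt/ILK tumors carried the same transgene and, in addition, a human ILK transgene under that promoter. All tumors arose in the mammary fat pads of nulliparous females of lines backcrossed to FVB, and their ages were not given in the sources used here. The paper describes the tumors as independent. Values are on the log2 scale, so that a difference of 1 is a doubling. The Wnt1 transcript was at 10.01 to 11.10 in MMTV-Wnt1 tumors and at 10.48 to 10.99 in MMTV-Wnt/ILK tumors. The row of mouse Ilk was at 10.53 to 10.87 and at 10.57 to 10.91 (log2 difference 0.14, standard error 0.15), so these values do not tell the groups apart, and it was not tested if these mouse probes detect human ILK. The epithelial adhesion gene Epcam was at 12.33 to 12.89 in all 8 tumors.

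Notch receptors are single-pass membrane proteins that are activated by ligands on a neighboring cell. Jag1, Jag2, Dll1 and Dll4 are activating ligands, whereas Dll3 is a divergent member that does not activate receptors on neighboring cells. After binding, the receptor is cut within the membrane, and its intracellular part joins Rbpj and Mastermind-like coactivators on target genes of the Hes and Hey families. In the mammary gland Notch signaling is known for directing cells to the luminal lineage, and in blood vessels Dll4, Jag1 and Notch4 act in endothelial cells and Notch3 in the mural cells around them. These were whole tumors, in which fewer cells of a type and less RNA per cell cannot be told apart.

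None of the 9 genes differed between the tumor groups beyond the spread of the tumors. A linear model with moderated variances (limma) called 0 of 9 genes at an adjusted p under 0.05, with p-values adjusted over all 23332 rows by the Benjamini-Hochberg method, where 0% of all rows were called. At an unadjusted p under 0.05 limma also called 0 of 9, where 5.11% of all rows were called. An equal-variance test of each row called 0 of 9 at that threshold as well, where it called 5.16% of all rows. A 2-sided exact permutation test, which has 70 ways to assign the tumors, gave p-values from 0.143 to 1.0, and the smallest it can give is 0.0286. In 0 of 9 genes were the groups fully separated, where 2.9% of all rows were. The mean in MMTV-Wnt/ILK tumors was lower for 8 genes and higher for Notch3, and the means of Notch1 and Jag2 came out higher after a repeated quantile normalization. Of all rows, 54.7% were lower and 45.3% higher in this sense, and among the 14860 genes with a row of their own 8802 were lower and 6058 higher. The median difference of the 9 genes was -0.15, beside -0.03 over all rows and -0.05 over those genes.

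**Figure D1:**
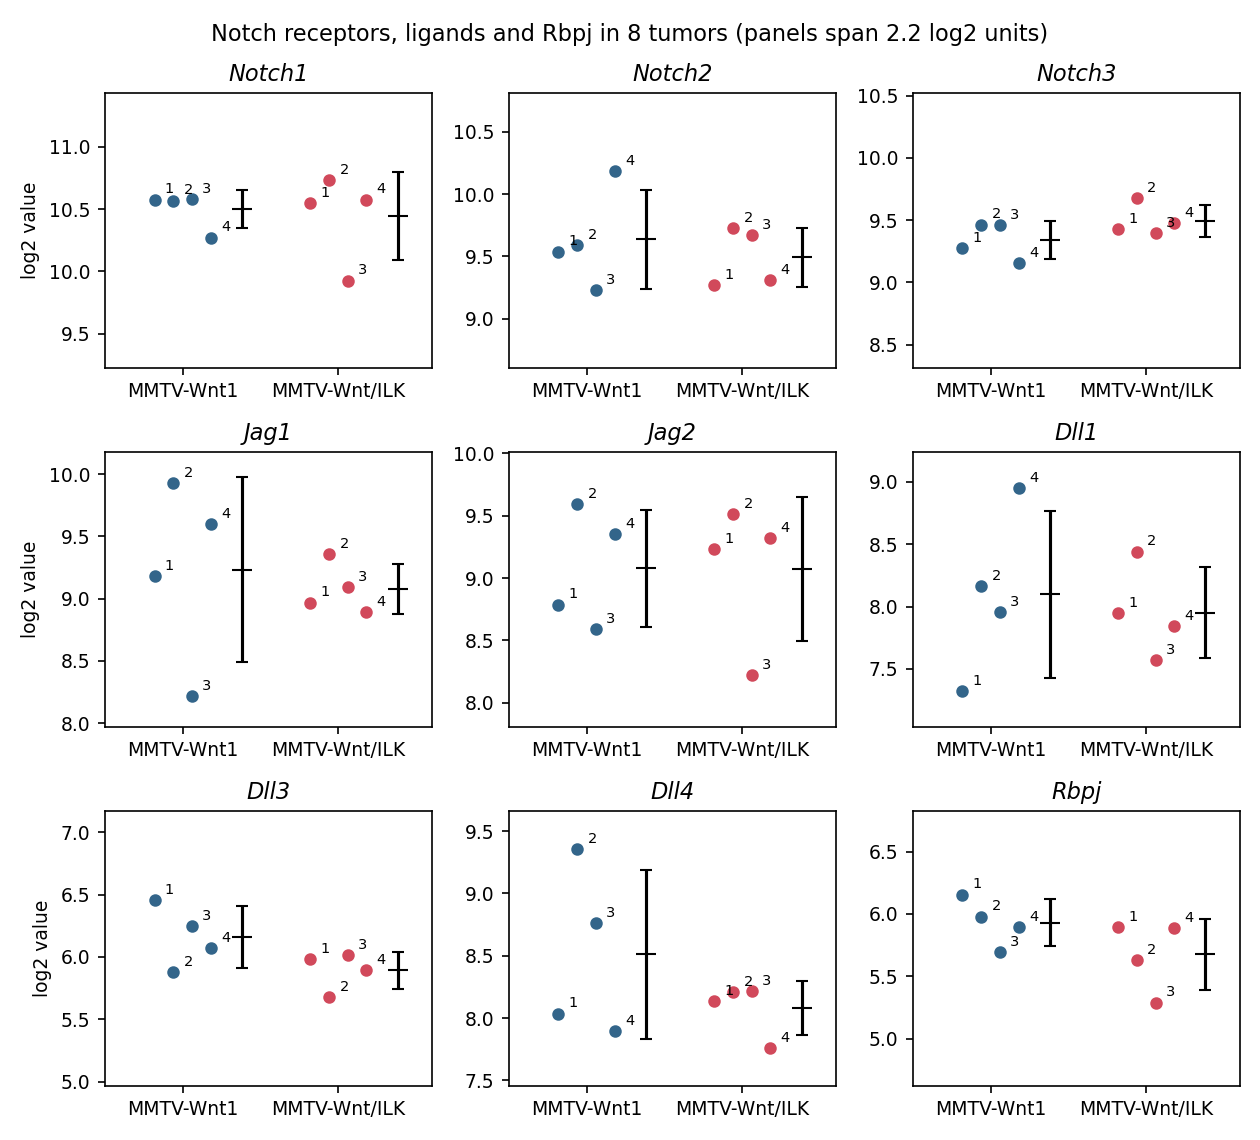
Log2 values of the 9 measured genes in each tumor, with MMTV-Wnt1 in blue and MMTV-Wnt/ILK in red. Numbers beside the points are tumor numbers, the bars give the mean and SD (n = 4), and all panels span the same number of log2 units. The groups overlap in every panel, and Jag1, Dll1 and Dll4 are more scattered in MMTV-Wnt1 tumors.

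Among the receptors, Notch1, which is active in luminal progenitor cells of the mammary gland, stood at nearly the same mean in both groups. Its log2 values in MMTV-Wnt1 tumors 1 to 4 were 10.57, 10.57, 10.58 and 10.27, and those in MMTV-Wnt/ILK tumors 1 to 4 were 10.55, 10.73, 9.92 and 10.58. The values of 5 tumors lay within 10.55 to 10.58, and MMTV-Wnt/ILK tumor 3 was the lowest of the 8. The means were 10.50 ± 0.15 (SD, n = 4) and 10.44 ± 0.36 (SD, n = 4), a log2 difference of -0.05 with a standard error of 0.20 (limma, adjusted p = 0.981; exact permutation test, p = 0.8). The 95% interval of this difference ran from -0.50 to 0.40, which is a fold change of 0.705 to 1.32. Without MMTV-Wnt/ILK tumor 3 the difference was 0.12. In that tumor the mean of 10 basal and myoepithelial markers was the lowest of the 8, at -0.39 relative to the mean over all tumors, and the mean of 4 skeletal muscle markers the highest, at 2.19. Of the basal and myoepithelial markers, Acta2, at 11.41, and Trp63, at 8.93, were at their lowest in that tumor. The other markers of that list lay within the range of the other tumors. The part of the basal or skeletal muscle markers in the Notch1 value was not tested.

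Notch2, a receptor of the same family, also differed by less than its spread. Its log2 values were 9.54, 9.59, 9.23 and 10.18 in MMTV-Wnt1 tumors 1 to 4 and 9.27, 9.73, 9.67 and 9.31 in MMTV-Wnt/ILK tumors 1 to 4. All MMTV-Wnt/ILK values lay within the range of the MMTV-Wnt1 tumors, whose tumor 4 was the highest. Between the groups the log2 difference was -0.14 (standard error 0.22), and its 95% interval ran from -0.65 to 0.37 (limma, adjusted p = 0.937; exact permutation test, p = 0.629). It was 0.04 without MMTV-Wnt1 tumor 4.

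Notch3, the receptor of vascular mural cells that is also found in luminal cells, was the steadiest of the set. Its log2 values were 9.28, 9.46, 9.46 and 9.16 in MMTV-Wnt1 tumors 1 to 4 and 9.43, 9.67, 9.40 and 9.47 in MMTV-Wnt/ILK tumors 1 to 4. Of the MMTV-Wnt/ILK tumors, 2 lay above the MMTV-Wnt1 range and 2 within it. The log2 difference was 0.15 (standard error 0.14), and its 95% interval ran from -0.17 to 0.48, at most a fold change of 1.39 (limma, adjusted p = 0.910; exact permutation test, p = 0.229). The SD within groups was 0.14 for Notch3, and 7.02% of all rows had a smaller one. The value was positive without any 1 of the 8 tumors, from 0.09 to 0.19.

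Jag1, Jag2, Dll1 and Dll4 were more scattered from tumor to tumor than the 3 measured receptors, whereas Dll3 was not. The pooled SD within groups was 0.54 for Jag1, 0.53 for Jag2, 0.54 for Dll1, 0.50 for Dll4 and 0.20 for Dll3, against 0.27 for Notch1, 0.33 for Notch2 and 0.14 for Notch3, and a median of 0.33 over all rows. Between 75.4% and 79.05% of all rows had a smaller SD than each of the 4 more scattered ligands. The spread was not tested between genes. In 6 of the 9 genes the SD was smaller among MMTV-Wnt/ILK tumors, as it was in 67.3% of all rows.

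Jag1, a ligand made by basal, stromal and vascular cells, had log2 values of 9.18, 9.93, 8.22 and 9.60 in MMTV-Wnt1 tumors 1 to 4. In MMTV-Wnt/ILK tumors 1 to 4 it was at 8.97, 9.36, 9.09 and 8.89. The highest and the lowest of the 8 tumors were both MMTV-Wnt1 tumors, 2 and 3, and they differed 3.27-fold, whereas the MMTV-Wnt/ILK values were close to each other. The log2 difference was -0.15 (standard error 0.34), and its 95% interval ran from -0.93 to 0.62 (limma, adjusted p = 0.960; exact permutation test, p = 0.743). It was 0.08 without MMTV-Wnt1 tumor 2 and -0.49 without MMTV-Wnt1 tumor 3. In MMTV-Wnt1 tumor 3 the mean of 8 fibroblast markers was at -2.12 relative to all tumors, while the other 7 tumors ran from -0.18 to 0.80. The part of these cells in the Jag1 value was not tested.

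Jag2, the other Jagged ligand, was at log2 values of 8.79, 9.59, 8.59 and 9.35 in MMTV-Wnt1 tumors 1 to 4 and of 9.23, 9.51, 8.22 and 9.32 in MMTV-Wnt/ILK tumors 1 to 4. The groups had almost the same mean, and MMTV-Wnt/ILK tumor 3 was the lowest of all, as it was for Notch1. The log2 difference was -0.01 (standard error 0.33), and its 95% interval ran from -0.76 to 0.74 (limma, adjusted p = 0.998; exact permutation test, p = 1.0). It was 0.27 without that tumor, and 0.16 and 0.08 without MMTV-Wnt1 tumors 2 and 4.

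Dll1, a Delta-like ligand known from mammary basal cells, was at log2 values of 7.32, 8.16, 7.96 and 8.95 in MMTV-Wnt1 tumors 1 to 4. It was at 7.95, 8.44, 7.57 and 7.84 in MMTV-Wnt/ILK tumors 1 to 4, all within the range of the MMTV-Wnt1 tumors. The log2 difference was -0.15 (standard error 0.34), and its 95% interval ran from -0.91 to 0.62 (limma, adjusted p = 0.962; exact permutation test, p = 0.743). It was 0.14 without MMTV-Wnt1 tumor 4, the highest of the 8 for Dll1 and for Notch2, and -0.41 without MMTV-Wnt1 tumor 1.

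Dll4, the ligand of sprouting and arterial endothelium, had the largest difference of the set in absolute size. Its log2 values were 8.04, 9.35, 8.76 and 7.90 in MMTV-Wnt1 tumors 1 to 4 and 8.14, 8.21, 8.21 and 7.76 in MMTV-Wnt/ILK tumors 1 to 4. MMTV-Wnt1 tumors 2 and 3 lay above all MMTV-Wnt/ILK tumors, and tumors 1 and 4 among them. The means were 8.51 ± 0.68 (SD, n = 4) and 8.08 ± 0.22 (SD, n = 4), a log2 difference of -0.43 (standard error 0.32), and its 95% interval ran from -1.15 to 0.29 (limma, adjusted p = 0.907; exact permutation test, p = 0.343). The interval includes 0 and also a level 2.22-fold lower in MMTV-Wnt/ILK tumors, so 4 arrays per group leave both within the error. The value was -0.15 without MMTV-Wnt1 tumor 2.

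MMTV-Wnt1 tumor 2 also had the highest vascular markers. The mean of 13 endothelial markers was at 0.80 in this tumor relative to all 8, and from -0.33 to 0.12 in the other 7. None of these markers was called, and none was below the lower quartile of the arrays in most tumors. Pecam1, an endothelial adhesion molecule, was at a log2 value of 10.58 in that tumor and from 9.13 to 9.72 elsewhere. The pericyte and smooth muscle markers were highest there as well, at 1.01, and so were the 6 fat markers, at 2.31, of which Adipoq, Lep and Ucp1 lay below the lower quartile of the arrays in at least 5 tumors. In MMTV-Wnt/ILK tumors 10 of the 13 endothelial and 7 of the 8 pericyte markers had a lower mean, as 54.7% of all rows did. Limma called 1 pericyte marker, Mcam, at an unadjusted p under 0.05, where 5.11% of all rows were called. It called 0 at an adjusted one. The groups did not overlap for Mcam, as for 2.9% of all rows. Relative to the mean of the endothelial markers, the log2 difference of Dll4 was -0.29 with a standard error of 0.33, and that of Jag1 was -0.01. This scaling moves the difference of every row by the same 0.14, so the change is not particular to Dll4 or Jag1 and cannot show their link to vessels. MMTV-Wnt1 tumor 3, the tumor with the next highest Dll4, had an endothelial mean of -0.03. The part of vessel content in these values was not tested.

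Dll3, the ligand that does not activate receptors on other cells, was near the lower part of the array range. Its log2 values were 6.46, 5.88, 6.25 and 6.07 in MMTV-Wnt1 tumors 1 to 4 and 5.98, 5.68, 6.01 and 5.89 in MMTV-Wnt/ILK tumors 1 to 4, with array lower quartiles between 5.50 and 5.62. For Dll3 the log2 difference was -0.27 (standard error 0.17), and its 95% interval ran from -0.65 to 0.11 (limma, adjusted p = 0.905; exact permutation test, p = 0.143), and the groups overlapped.

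Rbpj, which turns from repressor to activator when it binds the cleaved receptor, was dim as well. Its log2 values were 6.16, 5.98, 5.69 and 5.90 in MMTV-Wnt1 tumors 1 to 4 and 5.89, 5.63, 5.29 and 5.89 in MMTV-Wnt/ILK tumors 1 to 4. MMTV-Wnt/ILK tumors 2 and 3 lay below the MMTV-Wnt1 range, and the value of tumor 3 was below the lower quartile of its array. The log2 difference was -0.26 (standard error 0.18), and its 95% interval ran from -0.675 to 0.16 (limma, adjusted p = 0.906; exact permutation test, p = 0.143). It was 0.01 when MMTV-Wnt1 tumors 1 and 2 and MMTV-Wnt/ILK tumor 3, whose fat or skeletal muscle markers stood apart, were all left out. RefSeq lists 3 Rbpj pseudogenes in the mouse, and whether the probes read them was not tested.

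**Figure D2:**
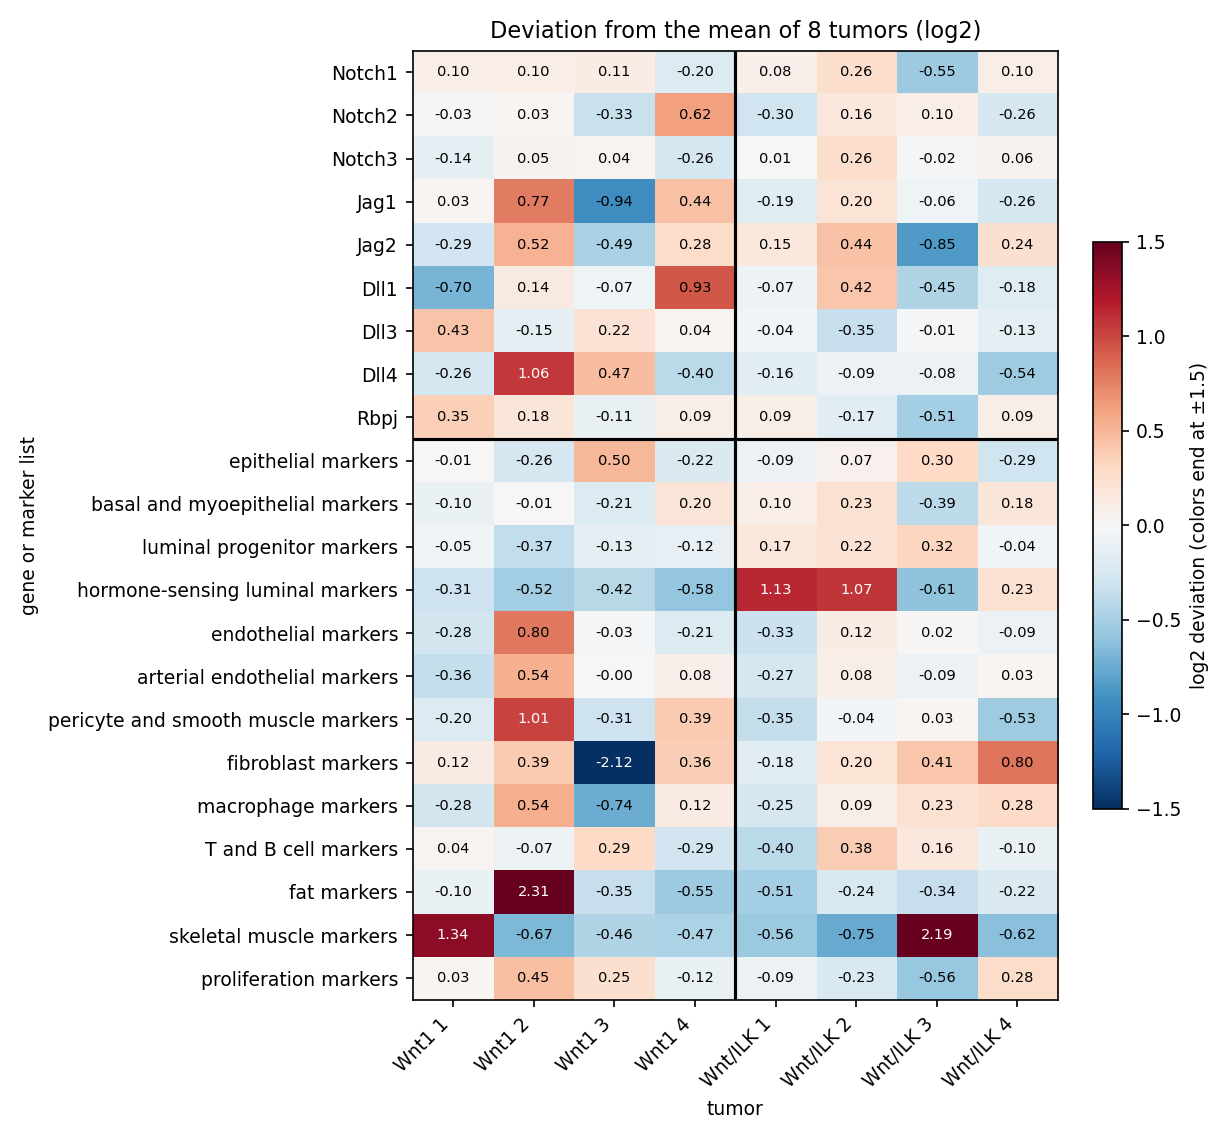
Log2 deviation of each gene (upper rows) and of the mean of each marker list (lower rows) from its mean over the 8 tumors, with 1 column per tumor. MMTV-Wnt1 tumor 2 is high for Jag1, Jag2 and Dll4 and for endothelial, pericyte and fat markers, and MMTV-Wnt/ILK tumor 3 is low for Notch1, Jag2 and Rbpj and high for skeletal muscle markers.

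Read by tumor, most of the set lay to the same side in MMTV-Wnt1 tumor 2 and in MMTV-Wnt/ILK tumor 3. In the other tumors 4 to 6 of the 9 genes were above the 8-tumor mean. MMTV-Wnt1 tumor 2 was above the 8-tumor mean for 8 of the 9 genes and the highest tumor for Jag1, Jag2 and Dll4. MMTV-Wnt/ILK tumor 3 was above the mean for 1 gene and the lowest tumor for Notch1, Jag2 and Rbpj. The array of MMTV-Wnt1 tumor 2 also had the highest median of all 8 arrays, at 7.23, and that of MMTV-Wnt/ILK tumor 3 was at 7.07. The share of all rows above their mean in each tumor was not counted. The part of array brightness in these counts was not tested. The mean deviation of the 5 ligands ran from -0.16 to 0.47 in MMTV-Wnt1 tumors and from -0.29 to 0.12 in MMTV-Wnt/ILK tumors. That of the 3 receptors ran from -0.06 to 0.06 and from -0.15 to 0.23. MMTV-Wnt1 tumor 4 was the highest for Notch2 and Dll1 and the lowest for Notch3, so that the receptors did not follow each other within it.

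Genes with a similar pattern over the 8 tumors were searched among 8509 genes whose row was above the median row, and the 3 with the highest Pearson correlation were taken for each gene. They were chosen for this likeness, which is given as a description, and tumors with unusual cell content are shared by all of these correlations. Notch1 was most like Actg2, a smooth muscle actin (r = 0.961, Spearman's rho = 0.738, n = 8). Actg2 was at a log2 value of 6.74 in MMTV-Wnt/ILK tumor 3 and at 7.38 in MMTV-Wnt1 tumor 4, the tumors with the lowest Notch1, and from 7.95 to 8.44 in the others. Notch2 was most like Kcnq1, a potassium channel (r = 0.971, rho = 0.881), and Anxa8, an annexin (r = 0.962, rho = 0.976). Anxa8 was at 11.66 in MMTV-Wnt1 tumor 4 and from 6.49 to 8.94 in the others, and Notch2 was highest in that tumor as well.

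Notch3 was most like Lrrc75b (r = 0.966, rho = 0.929) and Tgfbr3, a TGF-beta co-receptor (r = 0.961, rho = 0.952). Jag1 was most like Dnajb5, a heat shock co-chaperone (r = 0.973, rho = 0.929). Jag2 was most like Fam220a (r = 0.980, rho = 0.976), and the list also held Col4a2, a basement membrane collagen (r = 0.968, rho = 0.857). For Dll4 the list held Slc20a2, a phosphate transporter (r = 0.952, rho = 0.810), and Dusp6, a phosphatase of ERK kinases (r = 0.949, rho = 0.810). Dll1 was most like Pik3ip1, an inhibitor of PI3-kinase (r = 0.989, rho = 0.905), Dll3 like the neural transcription factor Atoh7 (r = 0.964, rho = 0.976) and Rbpj like the histone-binding protein Rbbp4 (r = 0.905, rho = 0.976). Dll3, Rbpj and Atoh7 were all highest in MMTV-Wnt1 tumor 1. The array of that tumor had the lowest median, at 6.89, and the lowest mean correlation with the other arrays, at 0.938. The part of this array in the likeness was not tested.

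Around the receptors and ligands, 55 of 69 further listed genes of the pathway were measured, of which 30 had the higher mean with the ILK transgene and 25 the lower, where 45.3% of all rows were higher. Limma called 0 of them at an adjusted p under 0.05, and 1, Hey2, at an unadjusted p under 0.05 as higher, where 2.91% of all rows were called in that direction. It called 0 as lower, where 2.21% of all rows were called. Their median difference was 0.06. Of the 5 genes of receptor cleavage measured, 3 had a higher mean. Adam10, the protease that cuts the ligand-bound receptor, was at a log2 mean of 10.84 and 11.04, so that they differed by 0.20 with a standard error of 0.14 (exact permutation test, p = 0.0571). Furin, which processes the receptor precursor, differed by 0.19 (standard error 0.16).

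Of the 6 genes of receptor glycosylation, 4 had a higher mean. Pofut1, the enzyme that adds O-fucose to the receptors, had its 4 MMTV-Wnt/ILK values, from 8.67 to 8.89, above the 4 others, from 8.50 to 8.63, with a log2 difference of 0.23 and a standard error of 0.13 (exact permutation test, p = 0.0286; limma, adjusted p = 0.905). It was named as the gene with the smallest p of its list, so its exact p is no independent evidence. Lfng, a fringe enzyme that extends the fucose and tunes the choice of ligand, was at 0.41 with a standard error of 0.31. Of the 13 genes of trafficking and turnover, 6 had a higher mean, among them Numb, an adaptor that restrains the receptor, at 0.26 with a standard error of 0.15. Of the 14 cofactors of Rbpj, 8 had a higher mean, with L3mbtl3, a corepressor, at 0.39 and a standard error of 0.18. Of the 9 non-canonical ligands, 6 had a higher mean, and Ccn3, a matricellular protein reported to bind Notch1, was at 1.15 with a standard error of 0.55 and groups that overlapped.

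**Figure D3:**
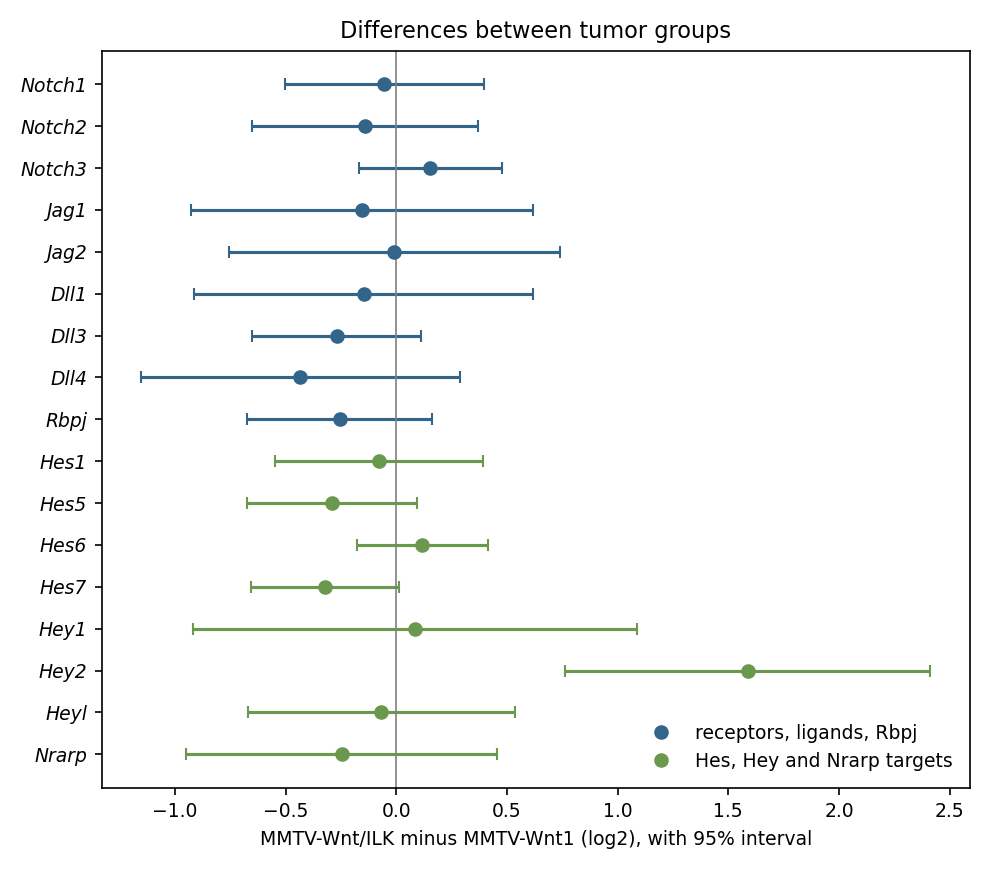
Difference of the group means, MMTV-Wnt/ILK minus MMTV-Wnt1, on the log2 scale for the 9 genes (blue) and 8 target genes (green). Points are limma estimates from 4 tumors per group and lines their 95% intervals. The intervals of all 9 blue genes include 0, and among the targets that of Hey2 lies above 0.

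Among 8 target genes, Hey2, a transcriptional repressor, was the exception. It was at log2 values of 6.88, 6.57, 6.52 and 6.53 in MMTV-Wnt1 tumors 1 to 4 and of 7.91, 9.19, 7.28 and 8.47 in MMTV-Wnt/ILK tumors 1 to 4, a step of 1.59 with groups that did not overlap (standard error 0.36; limma, adjusted p = 0.905; exact permutation test, p = 0.0286). The authors had picked Hey2 from these same arrays, so its separation is no independent evidence. Tumor 3, the MMTV-Wnt/ILK tumor with the lowest Hey2, also had the lowest Notch1. In contrast, the targets Hes1, Hey1, Heyl and Nrarp, a feedback inhibitor of the pathway, had log2 differences of -0.08, 0.08, -0.07 and -0.25 with standard errors of 0.21, 0.44, 0.27 and 0.31. Hes7, a member of the family known from somite segmentation, had its 4 MMTV-Wnt/ILK values, from 6.68 to 6.89, below the 4 others, from 6.92 to 7.39, with a difference of -0.32 and a standard error of 0.15 (exact permutation test, p = 0.0286; limma, adjusted p = 0.905). It too was named for its small p. For Hes5 the difference was -0.29 (standard error 0.17).

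The letters GTGGGAA, the core that Rbpj binds, were looked for on both strands of RefSeq promoter windows (GRCm38.p6), each from 250 bases before to 50 bases after a gene's start. Of all 32851 windows, 6.38% held a match. All 10 genes of the set have a window, Dll1 and Rbpj more than 1, and 0 of them held a match. Of the 8 target genes 5 have a window, and Hey2, Hes5 and Hes7 held a match while Hes6 and Nrarp did not. The 5 matches are shown because these 3 targets had the smallest p among the targets, in opposite directions, with the matched letters in capitals (TTCCCAC where the match lies on the opposite strand) and all sequences written 5′ to 3′ along the gene.
Hey2 at chr10:30842769-30842798, minus strand, 4 bases before the start: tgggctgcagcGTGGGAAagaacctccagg
Hey2 at chr10:30842972-30843001, minus strand, 207 bases before the start: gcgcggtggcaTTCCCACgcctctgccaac
Hes5 at chr4:154960829-154960858, plus strand, 83 bases before the start: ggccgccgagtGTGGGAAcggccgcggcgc
Hes5 at chr4:154960686-154960715, plus strand, 226 bases before the start: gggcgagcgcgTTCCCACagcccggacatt
Hes7 at chr11:69120262-69120291, plus strand, 180 bases before the start: cctcccctcacTTCCCACatttggggctag
Such a match is a description of the window and does not show binding, and windows without a match say nothing about the factor.

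Markers of epithelial cell types were set beside these values, since the receptors mark different cells. All 6 measured hormone-sensing luminal markers, which label cells that carry the estrogen receptor, were higher on average with the ILK transgene, and limma called 3 of them (Foxa1, Esr1 and Cited1) at an unadjusted p under 0.05, where 5.11% of all rows were called, and 0 at an adjusted one. The authors had reported both Foxa1 and Esr1 from these same arrays, so this count is no independent evidence. Beyond the arrays, the paper reports both as higher by quantitative RT-PCR, for Foxa1 in a larger set of tumors, and by immunohistochemistry. The mean deviation of the 6 markers was 1.13, 1.07, -0.61 and 0.23 in MMTV-Wnt/ILK tumors 1 to 4 and ran from -0.58 to -0.31 in MMTV-Wnt1 tumors. Tumor 3, with the lowest Notch1, Jag2 and Rbpj, was thus also the lowest of its group for these markers. The 7 luminal progenitor markers ran from -0.37 to -0.05 in MMTV-Wnt1 tumors and from -0.04 to 0.32 in MMTV-Wnt/ILK tumors, and MMTV-Wnt/ILK tumor 3 was the highest of all. Of these 7 markers, 5 had a higher mean with the ILK transgene and 2, Kit and Aldh1a3, a lower one. Itgb3, which encodes the CD61 that the authors sorted for, had a log2 difference of 0.28 with a standard error of 0.28. Their sort counted cells with CD61 on the surface as a share of luminal cells, and they report that share as expanded. RNA of whole tumors does not measure such a share, so the Itgb3 value does not bear on their count. Limma called 2 of the 7 (Itga2 and Cd55) at an unadjusted p under 0.05, beside the same 5.11% of all rows, and 0 at an adjusted one. The means of the 10 basal and myoepithelial markers ran from -0.21 to 0.20 and from -0.39 to 0.23. These means hide opposite movements in MMTV-Wnt1 tumor 4, which had the highest Notch2 and Dll1. It was the highest tumor for Krt5, Krt14, Oxtr and Lgr5 and the lowest for Myh11, Cnn1 and Itga6. Krt14 was at a log2 value of 11.42 there (others from 8.01 to 9.35) and Myh11 at 6.73 (others from 7.94 to 10.38). The part of basal cells in the Notch2 and Dll1 values was not tested.

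**Figure D4:**
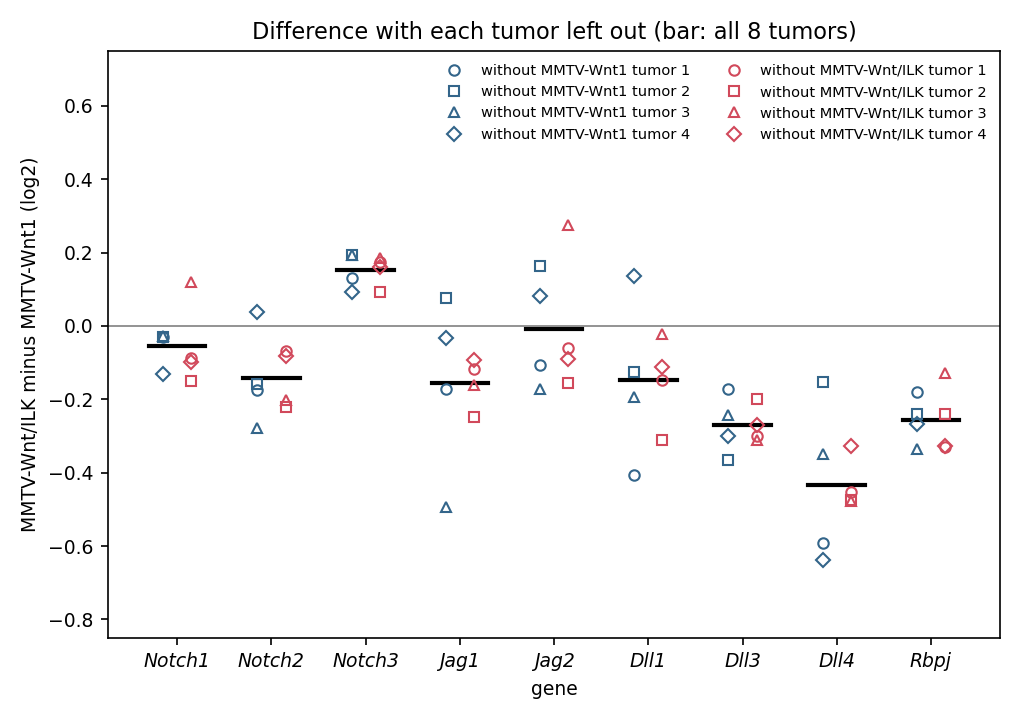
Difference of the group means on the log2 scale for the 9 genes with all 8 tumors (black bars) and with each tumor left out in turn (symbols, blue for a MMTV-Wnt1 and red for a MMTV-Wnt/ILK tumor left out). Notch3, Dll3, Dll4 and Rbpj keep their sign throughout, whereas Notch1, Notch2, Jag1, Jag2 and Dll1 change sign without at least 1 of the tumors.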

How the data were processed

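The deposited table holds log2 values of 23332 rows for 8 arrays. The authors made them in ArrayAssist (version 5.0 per the labels, another version in the paper's text) by RMA background correction and probe-set summary with quantile normalization between chips; the log base was inferred from how far the values reach. Medians of the arrays still ran from 6.89 to 7.23. Genome build of the probes: not given in the sources used here. Rows were named through the platform annotation, 14996 with exactly 1 gene, 1019 with several and 7317 with none, and symbols were updated by gene ID from RefSeq (GRCm38.p6), where 55 of the 14996 had no match. Where a gene had several such rows, the brightest on average was used.

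Groups were compared in limma 3.58.1 under R 4.3.3 (lmFit, eBayes) on every row and without covariates, p-values were adjusted over all rows by the Benjamini-Hochberg method, and single genes were also compared by an exact permutation test. The same limma steps were first run, in separate code, on simulated data, and the outcome is not given here. Marker lists were summarized per tumor as the mean of genes, each centered on its 8-tumor mean. Figures were drawn with matplotlib 3.10.9. The genes, lists and tests were chosen with earlier results of these data known. Named beside the set were up to 3 genes of each pathway list with the smallest p, the Hes, Hey and Nrarp targets and the 3 genes most like each member. Pathway genes without a row of their own were not analysed here. No 2 arrays held identical values, and the number of arrays limits the precision. The alternatives tried were a test with equal variances for each row (as the deposited design names), a variance trend, array weights, leaving out the dimmest 25% of rows, median-centering, repeated quantile normalization, rows with 1 gene only, the mean of a gene's rows, the tumor number as a block and leaving out each tumor; leaving out the tumors with fat or muscle markers and scaling to endothelial or epithelial markers were chosen after seeing the data.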

Additional observations from a re-analysis of the deposited data

Results flagged for a closer look

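Listed here are values of 1 tumor that stood apart from its group, in that the gap to the nearest other tumor, as a share of the group's range, was above Dixon's 95% critical value. Of 60 groups examined (the 9 genes, 8 targets and 13 marker lists in each tumor group), 7 were found, and chance picks out about 1 in 20, here 3. Notch1 in MMTV-Wnt1 tumor 4 was at a log2 value of 10.27, with the others of its group from 10.57 to 10.58. Hes7 in MMTV-Wnt/ILK tumor 3 was at 6.68, with the others from 6.86 to 6.89. Hey2 in MMTV-Wnt1 tumor 1 was at 6.88, with the others from 6.52 to 6.57. The mean of the fibroblast markers in MMTV-Wnt1 tumor 3 was at -2.12 relative to all tumors, with the others of its group from 0.12 to 0.39. The mean of the fat markers in MMTV-Wnt1 tumor 2 was at 2.31, with the others from -0.55 to -0.10. The mean of the skeletal muscle markers was at 1.34 in MMTV-Wnt1 tumor 1 (others from -0.67 to -0.46) and at 2.19 in MMTV-Wnt/ILK tumor 3 (others from -0.75 to -0.56).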

How the results depend on the processing

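Under every alternative run, 0 of the 9 genes passed an adjusted or an unadjusted p of 0.05 with limma or with the equal-variance test. Notch3 stayed higher and Dll3 and Dll4 stayed lower in all 20 alternatives. After a repeated quantile normalization Notch1 was at 0.0096 and Jag2 at 0.0185, and 3 genes had a higher mean in place of 1. Relative to the endothelial markers, which moved the median of all rows by 0.14, Notch1 was at 0.0871 and Jag2 at 0.13. In the 5 tumors low in fat and muscle markers, Notch1 was at 0.19, Jag1 at 0.16, Jag2 at 0.38 and Rbpj at 0.0089, and 5 genes had a higher mean. Array weights moved Dll4 down to -0.56, Dll1 to -0.46, Jag1 to -0.38, Notch2 to -0.30 and Jag2 to -0.17. They made the differences of Notch1 (-0.02), Notch3 (0.14), Dll3 (-0.16) and Rbpj (-0.19) smaller in size. When each tumor was left out, the difference ran from -0.15 to 0.12 for Notch1, -0.28 to 0.0390 for Notch2, 0.0924 to 0.19 for Notch3, -0.49 to 0.0775 for Jag1, -0.17 to 0.27 for Jag2, -0.41 to 0.14 for Dll1, -0.36 to -0.17 for Dll3, -0.64 to -0.15 for Dll4 and -0.33 to -0.13 for Rbpj, and 1 to 4 genes had a higher mean. Over all rows, limma called 0 to 13 at an adjusted p under 0.05 and 727 to 2010 at an unadjusted one when each tumor was left out, the 13 without MMTV-Wnt/ILK tumor 2. The unadjusted count was 1193 with all tumors, 2607 with array weights and 662 among rows with 1 gene only, where fewer rows were tested. The causes of the other changes were not tested.

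The tumor number is shared between the groups in the labels. Deviations of same-numbered tumors correlated at 0.107, 0.132, 0.155 and -0.004, and those of the other pairs at -0.238 to 0.134. Of the 4 same-numbered correlations, 1 was not over 0.1, so whether the numbers pair the tumors is not settled. With the tumor number as a replicate block, the differences were the same. The standard error was 0.18 in place of 0.33 for Jag2, 0.24 in place of 0.32 for Dll4, 0.14 in place of 0.17 for Dll3 and 0.15 in place of 0.18 for Rbpj. For the receptors it was larger, at 0.202 in place of 0.198 for Notch1, 0.244 in place of 0.225 for Notch2 and 0.144 in place of 0.142 for Notch3. Limma's unadjusted p ran from 0.106 (Dll3) to 0.966 (Jag2) over the 9 genes, and 1485 rows passed an unadjusted p of 0.05. The block changed no call among the 9 genes.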
